A study of Mus musculus with 2 samples.

Results

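Kcna4, Adarb1, Cyp11a1, Calca, Ky, Pdzk1ip1 and Tox2 are 7 genes better known from nerve, muscle, kidney or steroid-producing cells than from T cells. All were much lower in the bulk RNA library of fat regulatory T cells (Tregs) from mice with a floxed Hif1a than in the control library. Whether the difference lay within the Tregs or came from other cells in the libraries was not tested. The genes are 7 of the 10219 genes of the deposited table, picked by name from the largest falls between the 2 libraries. The measured ratio of knockout to control thus chose them, and their own ratios are given as a description. The idea that these genes are strange to T cells holds only in part: in mouse, Tox2 is known from follicular helper and exhausted T cells, Cyp11a1 from type 2 helper T cells, and Calca from group 2 innate lymphoid cells. Each kept between 13 and 94 counts in the knockout library, where no listed gene had fewer than 12 counts.

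Tregs restrain other immune cells and depend on the transcription factor Foxp3. Those of visceral fat acquire a tissue program that includes the IL-33 receptor gene Il1rl1, the nuclear receptor gene Pparg and the transcription factor gene Gata3. Hif1a encodes the oxygen-regulated subunit of HIF-1, which binds hypoxia response elements in DNA and promotes glycolysis.

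The cells came from adipose tissue of C57BL/6 mice at 4 months of age. One library was from Foxp3Cre mice, called the control, and the other from Hif1afl/fl;Foxp3Cre mice, called the knockout, so both genotypes carry a Cre recombinase driven with Foxp3. The sources used here do not give the sort markers, the number of mice pooled or the floxed part of Hif1a. With 1 library per genotype there is no replicate check and no test, and genotype and library cannot be told apart. Intervals below are exact 95% counting intervals, which leave out all variation between animals and treat amplified reads as independent molecules.

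Counts summed over the listed genes were 13472317 for the control and 11337415 for the knockout. Levels are counts per 1000000 scaled counts (CPM). Hif1a itself was at 1273 CPM in the control and 780 CPM in the knockout library. All 12 pan T cell markers were listed and 11 of them lay within 2-fold; their summed level was 4853 CPM in the control and 5530 CPM in the knockout library. Of 14 Treg core markers, all listed, 4 were lower by 2-fold or more and 4 were higher. By the same limit, 8.78% of all listed genes were lower and 11.4% higher. The lower markers were Il2ra (7.14-fold), Tnfrsf9 (3.65-fold), Tigit (3.52-fold) and Foxp3 (2.24-fold, 104 CPM in the control and 46.4 CPM in the knockout). The higher ones were Gpr83 (17.6-fold), Izumo1r (6.93-fold), Nrp1 (5.22-fold) and Lrrc32 (3.05-fold). Of 17 macrophage markers, 7 were listed, and all 7 had levels 2-fold or more above those of the control, with a summed level of 256 CPM in the control and 3748 CPM in the knockout. Of the other marker lists, 8 of 9 listed dendritic cell genes (984 and 3078 CPM summed), 3 of 4 natural killer cell genes, both stromal and mesothelial genes and 1 of 2 endothelial genes were higher by the same limit. The part of these other cells in the differences described here was not tested. In bulk RNA, fewer cells of a type and less RNA per cell cannot be told apart.

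Together the 7 genes held 10448 counts in the control library and 327 in the knockout. Their summed level was 786 CPM in the control and 28.5 CPM in the knockout library, a 27.6-fold difference. On the log2 scale of CPM + 0.5, the ratio of knockout to control had a median of -4.53 over the 7 genes and ran from -5.30 for Cyp11a1 to -3.84 for Pdzk1ip1. Over all listed genes the median was 0.01, and the middle 95% lay between -1.72 and 2.36. The 12 largest falls of the table were these 7 genes and Klrg1, Il1rl1, Tnfrsf8, Pparg and Il10, 5 genes of the fat Treg program. Pdzk1ip1 was the last of the 12, and the next gene, Bcat1, a branched-chain amino acid transaminase, had a log2 ratio of -3.79.

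**Figure D1:**
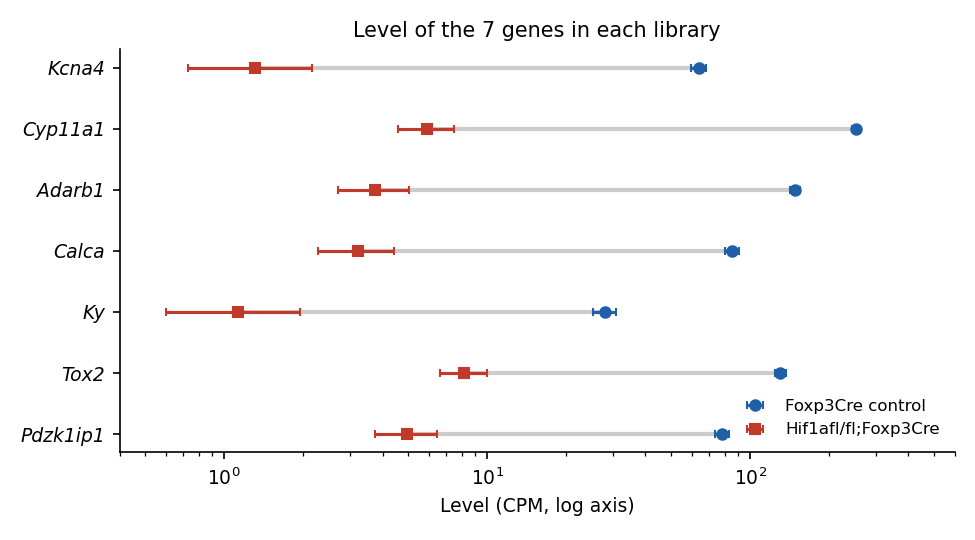
Level of each of the 7 genes in CPM (log axis) in the Foxp3Cre control library (blue circles) and the Hif1afl/fl;Foxp3Cre library (red squares), with 95% Poisson counting intervals. The control levels run from 28.0 CPM for Ky to 252 CPM for Cyp11a1 and the knockout levels from 1.13 to 8.18 CPM. The genes were picked for large falls, so the separation of the libraries follows from that choice.

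A fall of this size was rare in the table. At least 8-fold lower were 43 genes, 0.421% of those listed, and the 7 genes make up 16.3% of the 43, a share that their choice fixed. Large rises were more frequent in the whole table, with 169 genes at least 8-fold higher. The 7 genes had between 372 and 3356 counts in the control library, a range that held 4817 listed genes. Of these, 21 were lower by 8-fold or more and 9 higher by as much. That range was set on the control library alone and leaves out genes with fewer control counts. The balance of falls and rises within it follows in part from this choice. At a milder limit, 897 genes (8.78%) were lower and 1170 (11.4%) higher by 2-fold or more. When the libraries were scaled on the pan T cell markers instead, that split became 1497 lower and 818 higher, and the median of all genes moved by -0.28 (log2).

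**Figure D2:**
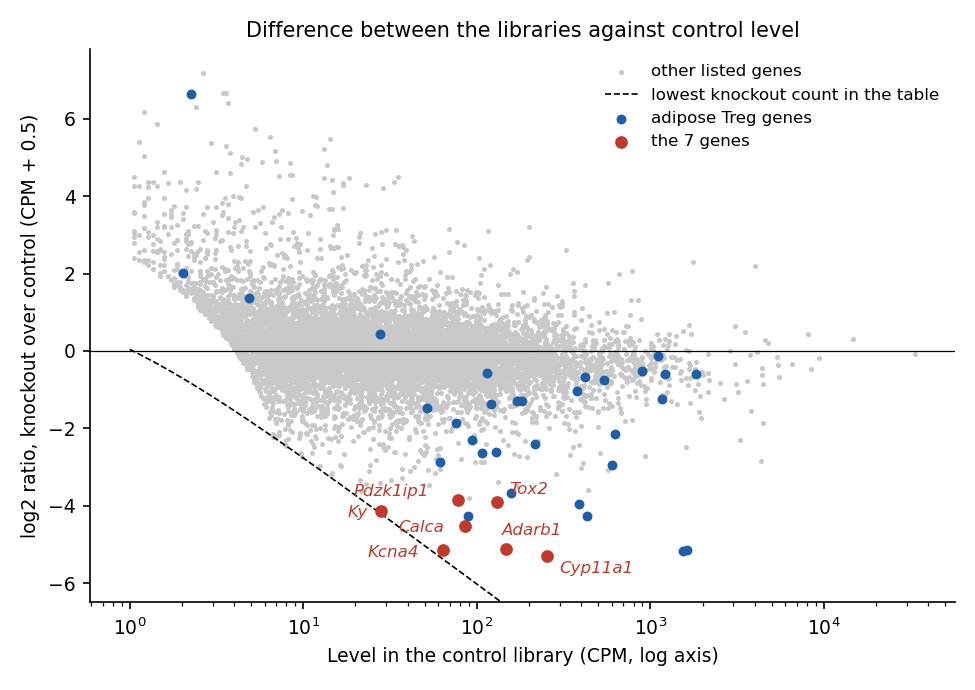
Log2 ratio of knockout over control (CPM + 0.5) against the level in the control library (CPM, log axis) for every listed gene, with the 7 genes in red, the adipose Treg genes in blue and all others in grey. The dashed line is the ratio that a gene with the lowest knockout count of the table would have; Kcna4 and Ky sit on or next to it, and the 7 genes have mid-range control levels.

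The table bounds how low a gene can appear. The lowest knockout count of any listed gene was 12 (1.04 CPM), so Ky with 13 counts and Kcna4 with 15 counts were 1 and 3 counts above it. At that minimum Ky would have been 26.8-fold lower and Kcna4 61.1-fold lower. Genes with fewer counts were not analysed here, and a gene that fell further could be missing from the ranking. In all, 17 listed genes had 15 or fewer counts in the knockout library.

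Levels of different genes were compared after division by the summed exon length in kilobases. On this CPM per kb scale Cyp11a1 (52.6) and Calca (50.6) were highest in the control library and could not be ordered, with a ratio of 1.04 (0.970 to 1.11). Pdzk1ip1 (43.8) and Tox2 (38.4) came next, Kcna4 (13.2) and Adarb1 (13.1) had the same level within counting error, and Ky (4.76) was lowest. Among the listed genes ranked by CPM per kb, 4 of the 7 genes stood at or above percentile 86.5, Kcna4 and Adarb1 near percentile 67.4, and Ky at percentile 39.5. In the knockout library the order differed. Pdzk1ip1 (2.79 CPM per kb), Tox2 (2.41) and Calca (1.91) overlapped in their intervals, Cyp11a1 (1.23) was below Calca by a ratio of 1.55 (1.01 to 2.35), and Adarb1 (0.332), Kcna4 (0.270) and Ky (0.192) were at or below percentile 0.402 of the listed genes.

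The windows around the start sites were read from RefSeq's promoter table (build GRCm38.p6), 250 bases before to 50 after each start. The 7 genes had 12 such windows, 5 of them for Tox2 and 2 for Cyp11a1. Both strands were searched for 4 motifs, each in 1 spelling only, so variant forms of a site were not counted. The core of the hypoxia response element was written ACGTG, and the site of GATA factors AGATAA. The site of nuclear receptors was written AGGTCA, and the promoter box placed shortly before many start sites TATAAA. The windows that hold one of the first 3 motifs are printed on the gene's strand with the matches in capitals, since HIF-1, Gata3 and Pparg are of the factor classes that bind them; a match on the other strand is seen as its reverse complement. They are those of Pdzk1ip1 (chr4:115088458-115088757, plus strand), Adarb1 (chr10:77418224-77418523, minus strand), Calca (chr7:114636308-114636607, minus strand) and Cyp11a1 (the second of its windows, chr9:58014702-58015001, plus strand).
Pdzk1ip1: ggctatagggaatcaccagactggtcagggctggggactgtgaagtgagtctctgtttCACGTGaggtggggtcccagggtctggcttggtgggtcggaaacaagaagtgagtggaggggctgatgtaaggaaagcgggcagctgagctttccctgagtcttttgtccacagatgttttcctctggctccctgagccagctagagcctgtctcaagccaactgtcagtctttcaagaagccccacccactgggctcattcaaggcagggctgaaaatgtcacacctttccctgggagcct
Adarb1: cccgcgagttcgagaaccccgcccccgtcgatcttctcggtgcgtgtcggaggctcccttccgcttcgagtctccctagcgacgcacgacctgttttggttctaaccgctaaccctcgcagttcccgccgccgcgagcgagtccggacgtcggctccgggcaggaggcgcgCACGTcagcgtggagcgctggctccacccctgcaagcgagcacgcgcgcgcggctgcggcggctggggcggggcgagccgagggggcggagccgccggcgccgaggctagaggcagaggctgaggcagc
Calca: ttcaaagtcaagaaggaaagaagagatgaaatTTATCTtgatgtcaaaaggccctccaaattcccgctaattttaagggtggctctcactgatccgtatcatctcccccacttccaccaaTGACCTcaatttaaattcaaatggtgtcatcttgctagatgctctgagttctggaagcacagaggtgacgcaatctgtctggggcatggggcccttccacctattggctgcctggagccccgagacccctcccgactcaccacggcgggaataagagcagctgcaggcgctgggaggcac
Cyp11a1: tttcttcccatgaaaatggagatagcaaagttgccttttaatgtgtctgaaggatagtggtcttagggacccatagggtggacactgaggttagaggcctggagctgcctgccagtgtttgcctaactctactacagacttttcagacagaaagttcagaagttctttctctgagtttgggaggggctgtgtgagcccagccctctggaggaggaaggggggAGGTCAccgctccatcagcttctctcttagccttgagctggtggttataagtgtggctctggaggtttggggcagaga
In Pdzk1ip1 the capitals are 2 overlapping matches on opposite strands, which begin at -192 and -191 from the start. The Adarb1 match begins at -79. In Calca the GATA motif begins at -218 and the nuclear receptor motif at -130, and in Cyp11a1 the nuclear receptor motif begins at -28. No match of 1 motif overlaps that of another.

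None of the motifs was common to the 7 genes. The shares below are of windows, not of genes, and Tox2 alone has 5 of the 12 windows, some of them overlapping. They thus cannot tell whether a motif is more or less frequent among the 7 genes. The hypoxia core in the spelling searched was in 2 of the 12 windows (16.7%), 1 of Pdzk1ip1 and 1 of Adarb1. It was in 19.6% of all 32851 windows of the table and 26.3% of the 9660 windows of listed genes. The GATA motif was in 1 window (8.33%; 11.2% of all windows and 6.36% of those of listed genes). The nuclear receptor motif was in 2 windows, 1 of Calca and 1 of Cyp11a1 (16.7%, against 16.3% and 12.2%). The TATA box was in 2 windows of Tox2 that differ by 1 base in position, at -31 and -32, against 13.6% and 6.84%. The windows of Kcna4 and Ky held none of these motifs in the spelling searched. Base composition varied widely as well: GC content ran from 51.0% in a Cyp11a1 window to 77.7% in a Tox2 window, and the ratio of observed to expected CpG from 0.05 in Cyp11a1 to 1.15 in Adarb1, which is percentile 99.0 of all windows. A match is a description of the letters, not a bound site.

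Kcna4 encodes Kv1.4, a rapidly inactivating voltage-gated potassium channel of neurons and heart. It had 848 counts in the control library (63.8 CPM) and 15 in the knockout (1.31 CPM). The knockout level was 2.05% of the control level, 48.9-fold lower (29.5 to 87.7), the largest fold of the 7 genes. The genes whose log2 ratio was nearest to its -5.15 were Il1rl1 at -5.14 and Klrg1, an inhibitory receptor, at -5.18.

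In T cells the channels Kv1.3 (Kcna3) and KCa3.1 (Kcnn4) hold the membrane potential that drives calcium entry. Of the potassium channel genes and subunits, 5 besides Kcna4 were listed, 2 of them at least 2-fold lower, and 1 was higher by as much (8.78% and 11.4% in the whole table). Kcna3 was 2.15-fold lower (319 control and 128 knockout counts) and Kcnq5 4.03-fold lower (84 and 18 counts). Kcnk6, a 2-pore-domain channel, was 4.83-fold higher (34 and 142 counts), while Kcnn4 and the beta subunit Kcnab2 had log2 ratios of 0.12 and -0.14. Kcna4 was thus the lowest of the channel genes in ratio, and its 13.2 CPM per kb in the control library stood beside 12.6 for Kcna3. Of 19 listed genes for calcium entry and stores, 0 were at least 2-fold lower and 2 were higher (8.78% and 11.4% in the whole table). Orai1, the pore of store-operated entry, was 2.33-fold higher and its store sensor Stim2 2.16-fold higher. The other ends of that list were Atp2a2 (1.92-fold lower), Orai3 (1.86-fold lower), Mcu (1.49-fold lower) and Itpr1 (1.68-fold higher). Its most abundant gene, the calcium pump Atp2b1, was at 319 CPM in the control and 351 CPM in the knockout library.

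Adarb1 encodes ADAR2, which converts adenosine to inosine in double-stranded RNA and is essential for editing glutamate receptor transcripts in brain. Its 1969 control counts (148 CPM) and 43 knockout counts (3.74 CPM) gave a 39.6-fold lower level (29.3 to 54.9). Il1rl1 and Klrg1 were again the nearest genes in log2 ratio. Its paralog Adar, which encodes the widely expressed ADAR1, had 91.8 CPM in the control and 92.7 CPM in the knockout library, so the deaminases differed within 1 family. Among the 6 other listed deaminases, the tRNA enzyme Adat3 was 2.12-fold lower, from 81 and 33 counts, and the cytidine deaminase Apobec1 2.72-fold higher. The others, Adar, Adat1, Adat2 and Apobec3, had log2 ratios between -0.03 and 0.11.

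The abundance of listed transcripts with sites known to be recoded by RNA editing was close in the 2 libraries. The enzyme that edits each site was not examined. All 9 listed transcripts with recoding sites were within 2-fold, with a median log2 ratio of -0.03. Blcap was 1.68-fold and Flna 1.51-fold lower, and Son, the most abundant, 1.19-fold higher, next to Azin1 (1.14-fold) and Tmem63b (1.15-fold). These are counts per gene, so the editing level itself was not measured.

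Cyp11a1 encodes the mitochondrial side-chain cleavage enzyme, which turns cholesterol into pregnenolone, the first step of steroid synthesis. It was the most abundant of the 7 genes in CPM and had the lowest log2 ratio of the table on CPM + 0.5; without a pseudocount Kcna4 (-5.61) was below it (-5.41). The control library had 3356 counts (252 CPM) and the knockout 68 (5.92 CPM), which is 42.7-fold lower (33.6 to 55.1). Klrg1 and Il1rl1 were nearest in log2 ratio, 0.12 and 0.16 away. In the GENCODE annotation it shares 145 exon bases with Gm17322 on the same strand; the treatment of reads in both is not known here.

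The other listed genes of steroid synthesis did not show a like fall. The levels of 23 genes of that list, which were not in the table, are not known here. Of 34 genes on the list 11 were in the table, Cyp11a1 among them, and of the other 10 only Fdx1l, a mitochondrial ferredoxin, was at least 2-fold lower (2.51-fold). The electron donors of Cyp11a1, Fdx1 and Fdxr, were 1.01-fold and 1.47-fold lower. The glucocorticoid receptor gene Nr3c1 was 1.72-fold lower. At the other end stood Stard3, a cholesterol transporter (1.54-fold higher), the P450 reductase Por (1.30-fold higher) and Tspo, a mitochondrial membrane protein at 489 and 567 CPM (1.16-fold higher). None of 7 markers of steroid-producing cells was among the listed genes, and a gene low in the knockout library alone can also be unlisted.

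Genes that carry or store cholesterol differed in both directions. Of 15 listed, the mitochondrial ATPase Atad3a was the 1 gene past 2-fold in the lower direction (2.84-fold; 8.78% of all listed genes), and 5 were at least 2-fold higher (11.4% of all listed genes). The largest ratios were those of Abca1 (6.72-fold, from 21 and 122 counts), which exports cholesterol, the lysosomal lipase Lipa (3.66-fold) and the exporter Abcg1 (3.19-fold). Macrophages also express these genes, and the macrophage markers given above were higher in the same library; their part in these ratios was not tested. Vdac1 was 1.35-fold lower, and Npc2, the most abundant, was 1.90-fold higher at 1454 CPM.

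Calca encodes calcitonin and, by alternative splicing, the neuropeptide CGRP, which dilates vessels and acts on immune cells. It had 1133 counts (85.2 CPM) in the control library and 37 (3.22 CPM) in the knockout. The knockout level was 3.78% of the control, a 26.5-fold difference (19.1 to 37.8). Counts per gene do not separate the calcitonin and CGRP transcripts. Nearest in log2 ratio, though 0.26 and 0.27 away from its -4.53, were Tnfrsf8 (CD30) and Pparg.

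Adrenomedullin, a related peptide, was also low in the knockout library: Adm had 218 control and 19 knockout counts and was 9.92-fold lower (6.20 to 16.8). Its ratio was the largest fall among all the related genes. The receptor side was mixed. Calcrl, the receptor, and Ramp1, the partner that makes it a CGRP receptor, were 1.41-fold and 1.96-fold lower, Crcp, a receptor component, had a log2 ratio of -0.03, and Ramp3, which makes it an adrenomedullin receptor, was 2.63-fold higher. Of 7 listed enzymes that process peptide hormones, 4 were at least 2-fold lower (57.1%, against 8.78% of all listed genes). These were the convertases Furin (6.39-fold, from 2189 and 296 counts) and Pcsk4 (6.28-fold, from 109 and 15 counts) and the carboxypeptidases Cpm (3.78-fold) and Cpd (2.51-fold). Pcsk7, the carboxypeptidase Cpe and the amidating enzyme Pam, which finishes CGRP, were 1.09-fold, 1.24-fold and 1.59-fold higher. Of 4 other listed genes of neuropeptides and their receptors, 1 was lower and 2 were higher by 2-fold or more. The peptide gene Nmb was 2.03-fold higher, Npy 12.2-fold higher (19 and 200 counts) and Penk 1.36-fold higher.

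Calca is also a marker of group 2 innate lymphoid cells, which share Il1rl1, Gata3 and Klrg1 with fat Tregs. Of 14 markers of those cells 9 were listed. Besides Calca, 4 of the 8 were at least 2-fold lower (50%, against 8.78% of all listed genes) and 1 was higher, and these 8 summed to 9353 CPM in the control and 3616 CPM in the knockout library. Among them Bmp7 was 2.59-fold lower, Il7r 1.26-fold lower and Arg1 13.2-fold higher. Il5, Il13, Nmur1, Il17rb and Ptgdr2, which define the cells best, were not among the listed genes. A gene with few counts in the knockout library alone can be unlisted, so their control levels are not known here. Of 11 mast cell and basophil markers only Hdc was listed, 7.74-fold lower. Whether such cells took part in the fall of Calca was not tested.

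Ky encodes the kyphoscoliosis peptidase, a transglutaminase-like protein of the muscle Z-disc that binds filamin C, and its loss causes muscle disease in mice. It was the least abundant of the 7 genes, with 372 control counts (28.0 CPM) and 13 knockout counts (1.13 CPM). The difference was 24.7-fold (14.3 to 46.9), with Pparg and Tnfrsf8 nearest to its log2 ratio of -4.13. Of 10 skeletal muscle markers, only Mylpf was listed, at 11.0 CPM in the control and 7.92 CPM in the knockout. Every listed gene had at least 12 knockout and 14 control counts. An unlisted marker may thus be low in 1 library alone, and the levels of the other markers are not known here. The listed Z-disc and filamin genes did not follow Ky. Of 7 others listed, 0 were at least 2-fold lower, Flna and Synpo2 were 1.51-fold and 1.52-fold lower, and Bag3 and Actn4 1.08-fold and 1.13-fold higher. The actinin gene Actn1 and the titin gene Ttn were 6.58-fold and 5.72-fold higher. Of 7 listed calpains and relatives, the protease Capn2 was 2.75-fold lower, and Capn1, Capn7, Capn10, Capn15, the small subunit Capns1 and the inhibitor Cast stayed within 2-fold.

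Pdzk1ip1 encodes MAP17, a small membrane protein of kidney tubule cells that binds PDZ scaffolds and takes part in glucose transport. It had 1036 counts (77.9 CPM) in the control library and 57 (4.96 CPM) in the knockout, 15.7-fold lower (12.03 to 20.9). Bcat1 and Il10 had the nearest log2 ratios, -3.79 and -3.95. Its scaffold and transport partners were close in the 2 libraries: all 6 listed were within 2-fold, with a median log2 ratio of 0.02. Ezr, Rdx and Msn, which tie membranes to actin, had log2 ratios of -0.40, -0.27 and 0.16, the scaffold genes Slc9a3r1 and Pdzd11 0.11 and -0.07, and the adaptor gene Numb 0.54. MAP17's main partner gene Pdzk1 was not among the listed genes.

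Tox2 encodes a transcription factor of the TOX family, which binds DNA through a high mobility group (HMG) box. It had the most knockout counts of the 7 genes, 94 (8.18 CPM), beside 1734 in the control library (130.4 CPM). The level was 15.9-fold lower (12.95 to 19.8), and Il10, the gene of an anti-inflammatory cytokine, was nearest in log2 ratio. Its listed family members did not differ in this way. Tox had 62.4 CPM in the control and 73.8 CPM in the knockout library, and Tox4 had 74.9 and 77.2 CPM.

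Of 19 other genes with an HMG box, 1 was at least 2-fold lower (5.26%, against 8.78% of all listed genes) and 3 were higher, where the whole table has 11.4%. Hmgb3 was 2.99-fold lower, followed by Ssrp1 (1.83-fold) and Hmgxb4 (1.34-fold). Tcf7 was 31.9-fold higher, from 93 and 2565 counts, Lef1 4.01-fold and Cic 2.37-fold; Tcf7 and Lef1 encode factors of naive and memory-like T cells. Hmgb1, the most abundant, was 1.08-fold lower. Genes of follicular helper and exhausted T cells, where TOX factors act, were divided: of 16 listed, 5 were at least 2-fold lower (31.2%, against 8.78% of all listed genes) and 5 higher (11.4% of all listed genes). Tigit (3.52-fold), Entpd1 (2.52-fold) and Batf (2.47-fold) were lowest in ratio, and Icos, the most abundant, was 2.25-fold lower. Sh2d1a (8.38-fold), Bcl6 (7.50-fold) and Cxcr5 (7.27-fold), genes of follicular helper cells, were higher; Bcl6 and Cxcr5 had 25 and 14 control counts.

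Over all 14 lists, 133 related genes were in the table when each was counted once and the 7 genes were left out. By the 2-fold limit, 18 were lower (13.5%, against 8.78% of all listed genes) and 22 higher (16.5%, against 11.4%). The remaining 93 were within 2-fold, and the median log2 ratio was 0.01. Adm was the 1 related gene at least 8-fold lower. The median of 8 lists changed sign under 1 of the other settings, so no direction is given for the lists whose median lies near 0.

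**Figure D3:**
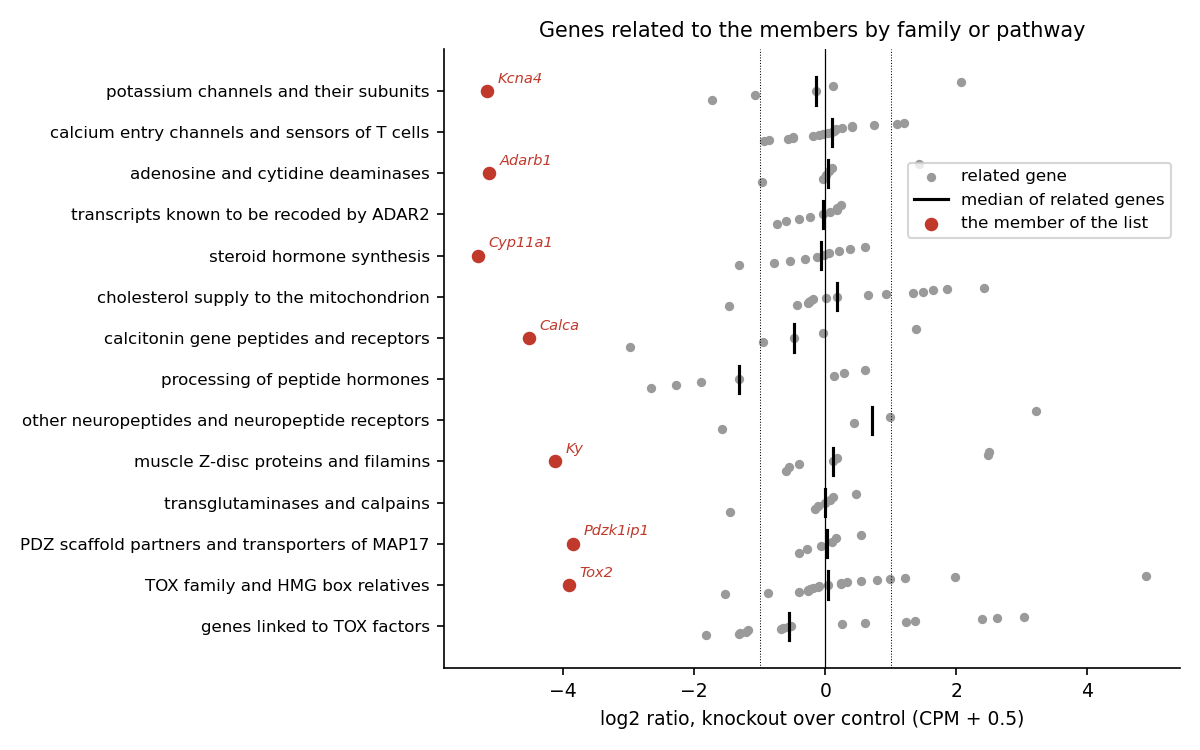
Log2 ratio of knockout over control (CPM + 0.5) of the listed genes in 14 lists related to the 7 genes by family or pathway; grey points are related genes, black bars their median and red points the member, and dotted lines mark -1 and 1. Most related genes lie between the dotted lines, and each red point lies to the left of every gene of its list.

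Genes of fat Tregs and type 2 lymphocytes were set beside the 7 genes; both lists were chosen with earlier results known. Of 31 listed adipose Treg genes, 20 were at least 2-fold lower (64.5%, against 8.78% of all listed genes) and 3 higher (11.4% of all listed genes), with a median log2 ratio of -1.37. The lowest were Klrg1 (20497 control and 484 knockout counts), Il1rl1 (21485 and 522 counts) and Tnfrsf8 (5770 and 253 counts). Itgae, Gpr55 and Cd36 were higher, by 2.74-fold, 4.80-fold and 122-fold, and Tnfrsf4, the most abundant, was 1.51-fold lower. Macrophages also express Cd36, and the macrophage markers Lyz2 and Cd68 were 172-fold and 20.02-fold higher; their part in the Cd36 value was not tested. Of 15 listed type 2 lymphocyte genes, 10 were at least 2-fold lower (66.7%, against 8.78% in the table) and 0 higher (11.4% in the table), with a median of -1.47. The enzymes that process peptide hormones, above, had a median of -1.32. Some genes are on both lists, and 6 adipose Treg genes were at least 8-fold lower. In CPM, Klrg1 (1542) and Il1rl1 (1616) were far more abundant in the control library than any of the 7 genes, while Pparg (88.9) was close to Calca (85.2).

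**Figure D4:**
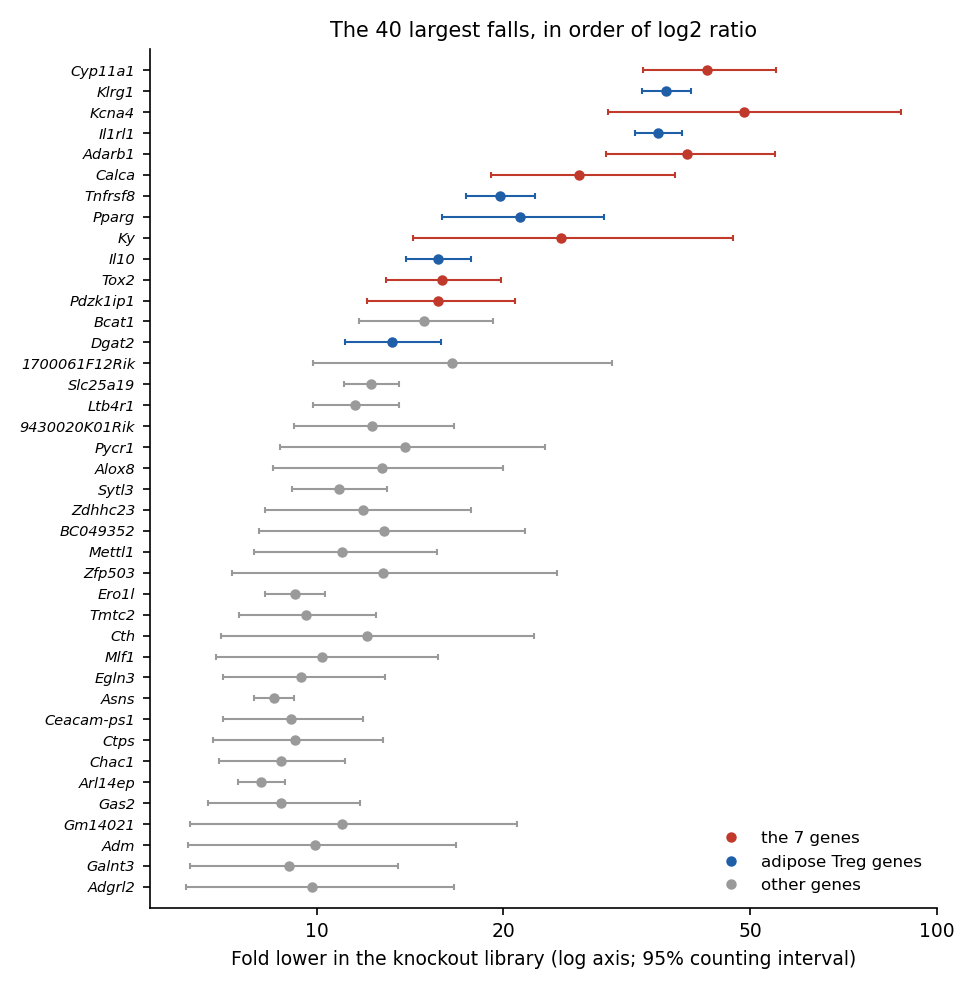
Fold lower in the knockout library (log axis) with 95% counting intervals for the 40 genes with the lowest log2 ratio, in order of that ratio; the 7 genes are red, adipose Treg genes blue and others grey. The 7 genes and 5 adipose Treg genes fill the first 12 places, and Ky and Kcna4 have the widest intervals among those 12.

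The 3 nearest listed genes on each side of each of the 7 genes were also compared, 42 genes in all. At least 2-fold lower were 5 of them (11.9%, against 8.78% of all listed genes) and 1 was higher, and the median log2 ratio was -0.20. Beside Kcna4, Arl14ep was 8.14-fold lower (7.46 to 8.90), from 5275 and 560 counts, with 5 annotated genes that are not listed between them. Mettl15, on the other side of Kcna4, was 2.50-fold lower. Slc19a1, a folate transporter, and Lss, the lanosterol synthase of cholesterol synthesis, were 3.71-fold and 4.16-fold lower on 1 side of Adarb1, where the nearest gene, Pofut2, had levels of 36.9 and 36.8 CPM. Ryk was 3.47-fold lower near Ky, and Spata6 2.10-fold higher near Pdzk1ip1. The neighbours of Cyp11a1, Calca and Tox2 were all within 2-fold.

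**Figure D5:**
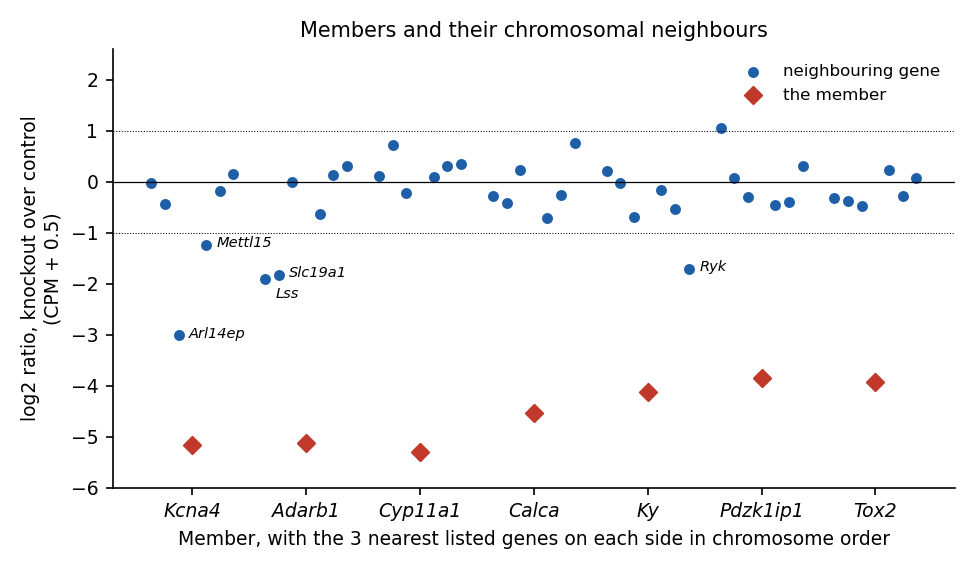
Log2 ratio of knockout over control (CPM + 0.5) of the 7 genes (red diamonds) and of the 3 nearest listed genes on each side of them in chromosome order (blue circles); the horizontal axis shows order, not distance, and dotted lines mark -1 and 1. The 5 named neighbours were at least 2-fold lower, and each of the 7 genes lies below all of its neighbours.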

How the data were processed

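The authors deposited 1 table of read counts per gene, whole numbers that are not normalized, for both libraries. The submitters' processing notes list TopHat2 2.0.12, Bowtie2 2.2.3, HTSeq 0.6.1, edgeR and a build named mm8. The sources used here do not state the annotation, the strand setting or how reads in overlapping genes were handled. The deposited log2 fold change, log2 CPM, p-value and adjusted p-value, the likelihood ratio and mean count (scores here) and the raw-count ratio, named per the file headers, support no value printed here.

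Counts were scaled by TMM (edgeR 4.0.16, R 4.3.3); log2 ratios use CPM + 0.5, and folds use scaled counts without pseudocount, with exact Clopper-Pearson intervals (scipy 1.17.1). Levels have Poisson intervals. The calculation was tested on simulated data. Exon lengths and gene order came from GENCODE M21, which holds 10200 of the 10219 IDs, and promoters from RefSeq (GRCm38.p6), so these coordinates are not on the build of the notes. In 14 rows a symbol turned into a date was restored from its ID.

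The members and lists were chosen with earlier results of these data known. Named were the 7 genes, Hif1a, the 2 other genes nearest to each in log2 ratio (predicted genes left out), and every listed gene of lists with up to 8, otherwise the 3 lowest, the 3 highest and the most abundant; a few genes that this rule names are not reported here. Further genes named in lists of markers, and the comparison of chromosomal neighbours, were chosen after values were seen. Alternatives were total counts, DESeq2 1.42.0 size factors, upper quartiles and pan T cell markers for scaling, pseudocounts of 0, 1 and 2, rRNA genes left out, and a filter at 5 CPM.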

Additional observations from a re-analysis of the deposited data

How the results depend on the processing

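Of 82 alternative values computed for the 7 log2 ratios, their median and the counts of genes past a limit, 78 stayed close to those reported. Scaling on the pan T cell markers raised the genes at least 8-fold lower from 43 to 67 and those at least 2-fold lower from 897 to 1497. With CPM + 2 the log2 ratio of Kcna4 became -4.32 and that of Ky -3.26, since a larger pseudocount pulls genes with few counts towards 0. Every member remained at least 8-fold lower in each setting. All 7 were among the 12 largest falls in each setting except CPM + 2, where 6 were and the lowest stood at rank 16. Of 128 alternative medians of the gene lists, 8 changed sign, in 8 lists. No paired analysis was possible because there is 1 library per genotype, and no library could be left out. The knockout counts of 13 to 94 limit the precision of the folds, and the fall of Ky cannot be read below the table's minimum of 12 counts.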
